A study of Mus musculus with 6 samples.

Results

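The variable (V) segments of the mouse immunoglobulin heavy chain, whose gene symbols begin with Ighv, were measured in lung RNA from mice exposed to cigarette smoke. A segment was included when its symbol began with Ighv and its counts over the 6 libraries summed to at least 10. That rule took 98 of the 183 Ighv rows of a table with 57180 rows, of which 29706 had counts. A further 19 Ighv rows held some counts but fewer than 10, and 66 held none. The members were thus chosen by their summed counts, and their presence is a description with no test.

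The libraries fall into 2 groups of 3: the wild type (genotype WT) and mice overexpressing FTO (genotype FTO_OE), an enzyme that removes methyl groups from adenosine in RNA. All 6 samples had the smoke exposure, so no library shows the lung without smoke. The labels give no strain, age, sex, length of exposure, promoter or tissue of overexpression, and leave unsaid whether separate animals stand behind the libraries, so the p-values below measure only the spread between these samples. Library totals ran from 16731850 to 21444907 counts. Fto, the overexpressed gene, stood at 66.2, 69.9 and 68.6 CPM (counts scaled to library size) in the wild-type libraries and at 666, 650 and 741 CPM in the FTO-overexpressing libraries, so every library matched its genotype label. The lung markers, among them Sftpc and Scgb1a1, were present in every library, with summed levels of 41317 to 46887 CPM in the wild type and 32808 to 39933 CPM in the overexpressing group, without overlap. Singly, 1 of the 7 markers was lower in every overexpressing library than in any wild-type library, beside 6.9% of all genes tested. Sftpc itself overlapped between the groups.

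Each B cell builds its heavy chain gene by joining 1 V segment to a D and a J segment, and the joined exon is then spliced to a constant region that sets the antibody class. The V segment encodes most of the part that contacts antigen, including the first and the second of the 3 hypervariable loops. Plasma cells carry far more antibody RNA than resting B cells, so in tissue RNA a few plasma cells can supply most V segment reads. In the airway wall many of them make IgA, which is linked by the J chain and carried across the epithelium. Reads of a V segment therefore count RNA, not cells, and fewer cells and less RNA per cell cannot be told apart in bulk tissue.

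The 183 rows were matched by identifier and symbol to the GENCODE M21 annotation (assembly GRCm38), where all lie on the minus strand of chromosome 12. That annotation lists 113 of them as V genes and 70 as pseudogenes, and 97 of the 98 members were V genes. The remaining member, the pseudogene Ighv1-14, had 13.48 counts in all, 8.03 of them in wild-type replicate 2. The sources used here do not give the build behind the deposited table. No positions are printed, and the segments were ordered along the locus by the annotation alone. Just inside the threshold were Ighv3-3, with 10 counts of which 9 came from FTO-overexpressing replicate 3, and Ighv5-2, with 11 counts of which 7 came from wild-type replicate 1. Just outside were Ighv8-2 and Ighv1-2 with 8 counts each.

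The sequences of the 4 segments that had the largest share of Ighv counts in at least 1 library show how far the leading segments differ. They are the last 294 bases of the GENCODE M21 transcripts, 5′ to 3′, and the capitals mark the TGT that encodes the conserved cysteine next to the third hypervariable loop.
Ighv1-64: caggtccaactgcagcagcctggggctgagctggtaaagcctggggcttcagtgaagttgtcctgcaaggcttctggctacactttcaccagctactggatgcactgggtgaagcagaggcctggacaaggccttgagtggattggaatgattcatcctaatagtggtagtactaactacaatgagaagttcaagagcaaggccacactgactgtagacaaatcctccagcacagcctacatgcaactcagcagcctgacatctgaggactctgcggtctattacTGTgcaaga
Ighv14-3: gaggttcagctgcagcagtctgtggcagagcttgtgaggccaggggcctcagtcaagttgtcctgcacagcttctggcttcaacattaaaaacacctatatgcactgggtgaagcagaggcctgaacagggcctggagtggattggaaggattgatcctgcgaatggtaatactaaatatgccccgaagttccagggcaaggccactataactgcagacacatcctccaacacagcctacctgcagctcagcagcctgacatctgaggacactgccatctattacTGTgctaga
Ighv1-34: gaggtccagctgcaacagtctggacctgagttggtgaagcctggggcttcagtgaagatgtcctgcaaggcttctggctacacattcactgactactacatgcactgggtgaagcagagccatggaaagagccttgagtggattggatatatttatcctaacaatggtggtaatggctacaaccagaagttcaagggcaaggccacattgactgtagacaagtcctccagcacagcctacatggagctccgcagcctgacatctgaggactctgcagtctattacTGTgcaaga
Ighv1-82: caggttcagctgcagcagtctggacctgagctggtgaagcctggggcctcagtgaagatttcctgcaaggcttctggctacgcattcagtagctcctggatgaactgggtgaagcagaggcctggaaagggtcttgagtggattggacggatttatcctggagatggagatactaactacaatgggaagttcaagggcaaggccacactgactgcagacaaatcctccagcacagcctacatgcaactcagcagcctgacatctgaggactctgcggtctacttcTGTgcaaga
Ighv1-64, Ighv1-34 and Ighv1-82 belong to the Ighv1 (J558) family, the largest of the locus, and Ighv14-3 to the Ighv14 family. Identity between these 4 sequences ran from 79.0%, for Ighv14-3 and Ighv1-34, to 88.4%, for Ighv1-64 and Ighv1-82. Other members are far closer to each other.

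A pair from the same family shows how alike members can be. Ighv1-72, one of the 8 leading segments and long studied in the antibody response to the hapten nitrophenyl, is set here beside Ighv1-62-3, with the differing bases in capitals.
Ighv1-72: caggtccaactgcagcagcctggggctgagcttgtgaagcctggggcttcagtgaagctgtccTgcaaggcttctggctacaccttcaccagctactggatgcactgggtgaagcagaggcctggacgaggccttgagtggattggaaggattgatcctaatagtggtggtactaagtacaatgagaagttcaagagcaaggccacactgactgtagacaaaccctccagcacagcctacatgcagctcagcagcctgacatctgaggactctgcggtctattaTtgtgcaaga
Ighv1-62-3: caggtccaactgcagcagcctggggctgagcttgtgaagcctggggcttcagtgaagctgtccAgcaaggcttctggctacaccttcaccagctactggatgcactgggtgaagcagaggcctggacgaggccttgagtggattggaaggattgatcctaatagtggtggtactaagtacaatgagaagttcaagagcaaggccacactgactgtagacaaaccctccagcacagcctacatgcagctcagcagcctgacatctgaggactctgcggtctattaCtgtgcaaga
The pair was 99.3% identical, with T64A and T285C from Ighv1-72 to Ighv1-62-3, counted from 1 at the 5′ end of the printed stretch. The table gave Ighv1-72 6031 counts and Ighv1-62-3 43.3 counts over the 6 libraries. How reads that match both were divided is not given, so the split within such a pair is uncertain. Another Ighv1 pair was closer still: Ighv1-62-2 and Ighv1-71, with 1442 and 109 counts, were 100% identical over the stretch compared. Over all members, 50 had another member at an identity of at least 95%, and for 93 the nearest member was in the same family. Ighv rows outside the 98 members were not compared. Values that were not whole occurred in 53 members, of which 37 belonged to Ighv1. The nearest copy of those 53 had a median identity of 96.3%, against 92.2% for the 45 members with whole values only.

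The total of the 98 members was 164409 counts, against 47.0 counts in the Ighv rows that were left out. In the wild type the members held 0.127%, 0.289% and 0.0635% of a library's counts in replicates 1, 2 and 3. In the FTO-overexpressing group they held 0.110%, 0.191% and 0.0570% in replicates 1, 3 and 2. The groups overlapped: the highest library was wild-type replicate 2 and the lowest was FTO-overexpressing replicate 2, and in each group the highest library had more than 3 times the lowest. The means were 0.160% ± 0.117 (SD, n = 3) and 0.119% ± 0.0675 (SD, n = 3), a ratio of 0.745 that lies within the spread of either group. Without wild-type replicate 2 the ratio was 1.25, so its direction rests on that library. Counting error was small beside these gaps. The 95% Wilson interval of the lowest library was 0.0559% to 0.0582% and that of the highest 0.287% to 0.292%, for counting error only and with reads that carry no molecular identifiers.

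Scaled by TMM, which sets libraries to a common level from the bulk of genes, the summed segments stood at 1304, 2947 and 630 CPM in wild-type replicates 1, 2 and 3. They stood at 1131, 543 and 1889 CPM in FTO-overexpressing replicates 1, 2 and 3. The heavy chain constant genes, the other end of the same transcripts, followed with 4961, 10950 and 2420 CPM in the wild type, against 4246, 2097 and 7835 CPM in the overexpressing group. The libraries stood in the same order for both, and the number of Ighv counts per 100 heavy chain constant counts was nearly level, at 26.3, 26.9 and 26.0 in the wild type, against 26.6, 25.9 and 24.1 in the overexpressing group.

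**Figure D1:**
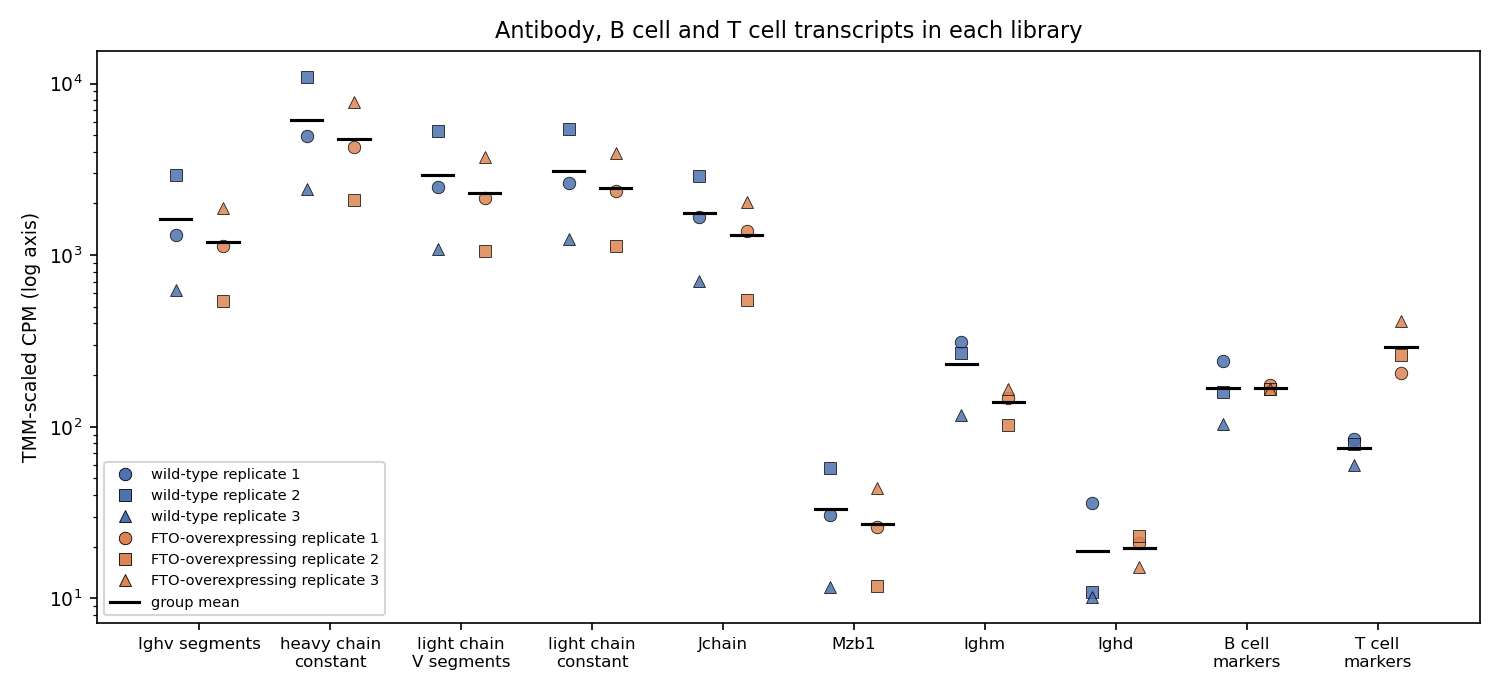
Summed antibody, B cell and T cell transcripts by library, in TMM-scaled CPM on a log axis, with a point for each library and a bar at each group mean. The summed Ighv segments, heavy and light chain constant genes and light chain V segments share 1 order of the libraries with Jchain. In that order wild-type replicate 2 is highest and FTO-overexpressing replicate 2 lowest. Mzb1, the single constant genes Ighm and Ighd, and the B cell and T cell markers have other orders.

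The same order held for the summed light chain V segments, the summed light chain constant genes, Igha, Ighg2c, Igkc and Jchain, which encodes the chain that links IgA and IgM units. Jchain stood at 1665, 2899 and 703 CPM in the wild type, against at 1377, 545 and 2033 CPM in the overexpressing group, a spread similar to that of the segments. Mzb1, a chaperone of antibody folding in plasma cells, kept the order except at the bottom, where wild-type replicate 3 (11.7 CPM) and FTO-overexpressing replicate 2 (11.8 CPM) were nearly equal. Ighg1, Ighg2b, Ighm and Derl3 had other orders, though wild-type replicate 2 was highest for each of these except Ighm. The summed plasma cell markers had the order of Ighv, but Jchain is part of that sum, and without it wild-type replicate 1 (729 CPM) and FTO-overexpressing replicate 1 (770 CPM) changed places. The Ighv total per Jchain count ran from 0.784 to 1.02 in the wild type and from 0.822 to 0.995 in the overexpressing group. None of the 12 plasma cell markers, which include Xbp1 and Sdc1, passed an adjusted p of 0.05 in edgeR's test over all genes, and their median log2 fold change was -0.091.

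B cell markers did not follow that order. The 14 markers, among them Ms4a1, a surface protein of B cells, summed to 243, 159 and 104 CPM in the wild type, against to 175, 165 and 166 CPM in the overexpressing group. Wild-type replicate 2, highest for Ighv, was next to last for B cell markers, and it held 18.5 Ighv counts per B cell marker count against 5.37 in wild-type replicate 1 and 3.29 in FTO-overexpressing replicate 2. Ighd, the constant gene of resting B cells that have not switched class, was highest in wild-type replicate 1 at 35.8 CPM and stood between 10.2 and 23.0 CPM elsewhere. None of the 14 B cell markers passed the test, with 7 log2 fold changes above 0 and 7 below.

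Among the constant genes, Igha took 51.4%, 45.2% and 54.7% of heavy chain constant counts in the wild type, against 50.1%, 52.7% and 53.6% in the overexpressing group, without division by length. Igha, the constant gene of IgA, stood at 2549, 4954 and 1323 CPM in the wild type, against at 2127, 1104 and 4200 CPM in the overexpressing group. Ighg1, a constant gene of IgG, varied more than Igha, from 39.5 to 1009 CPM within the wild type. Ighm, the constant gene of IgM, had a log2 fold change of -0.75 ± 0.342 (SE) with an adjusted p of 0.569 in edgeR's test. No heavy chain constant gene passed the test (7 of 8 tested, median log2 fold change -0.38), and none of the 4 light chain constant genes did (median -0.30). Rag1 and Rag2, which cut the DNA to begin V segment joining, had 1 count and 0 counts over all libraries, and 3 counts, the limit that 0 allows, would be 0.138 to 0.171 CPM in a library.

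Each segment was then compared between the genotypes with edgeR's quasi-likelihood test over all 16989 genes that passed the filter on low counts. Of the 98 members, 81 passed that filter, and the 17 that did not had 10 to 179 counts each. None of the 81 passed an adjusted p of 0.05, beside 0.0942% of all genes tested (0.0765% higher and 0.0177% lower in the overexpressing group). DESeq2 called none either, beside 424 of the 16989 genes, and left 3 of the 81 members without an adjusted p. With limma-voom no member was called, beside 5 of the 16989 genes. At an unadjusted p under 0.05 edgeR had 1 of 81 members, Ighv1-74, against 9.44% of all genes. No member had all 3 FTO-overexpressing libraries above, or all 3 below, the wild type on the CPM scale, whereas 7.94% of all genes were above and 6.9% were below.

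The log2 fold change of FTO-overexpressing over wild-type libraries was below 0 in 62 of the 81 members and above 0 in 19, against 48.5% of all genes below 0. The median was -0.49 over the members and 0.0069 over all genes. The members were read in the same libraries, so these counts do not add up as independent results. Within a group the SD of a member's log2 level had a median of 1.16, against 0.169 over all genes. Wild-type replicate 2 had the highest level in 53 of the 81 members and FTO-overexpressing replicate 3 in 20. The lowest level was in wild-type replicate 3 for 33 members and in FTO-overexpressing replicate 2 for another 33. Without wild-type replicate 2 the median was 0.41, with 25 of 82 members below 0.

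**Figure D2:**
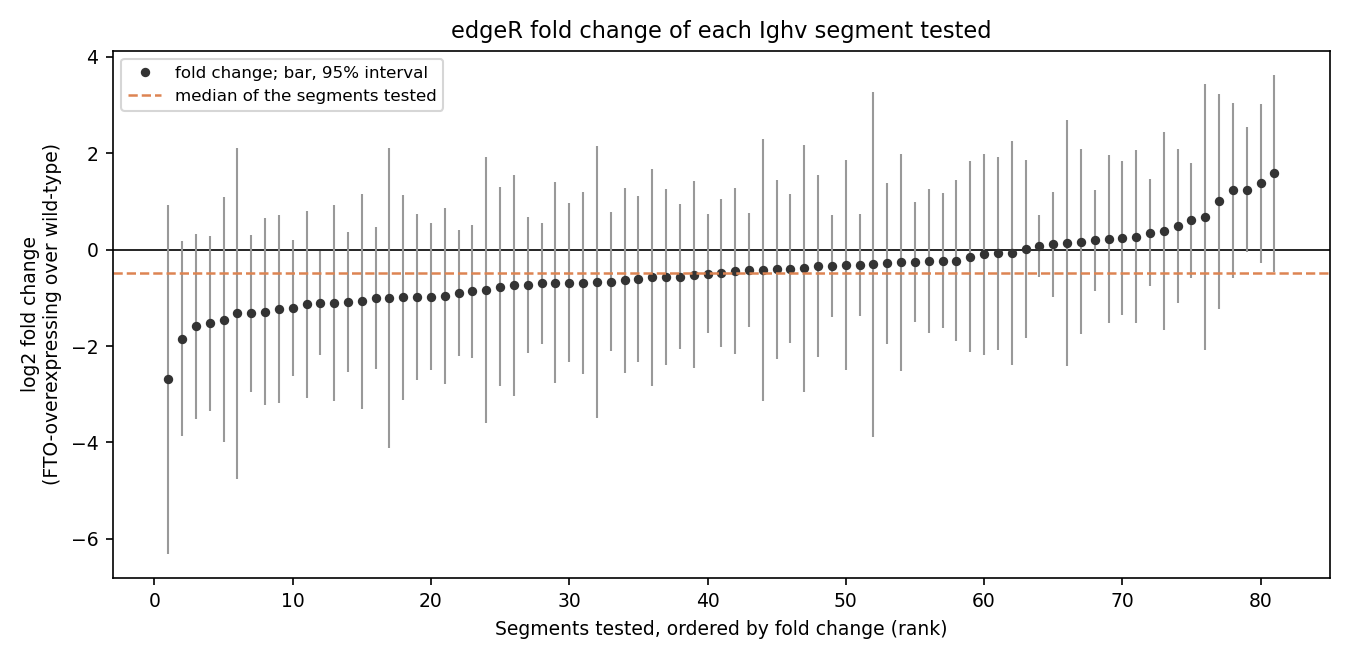
The log2 fold change of FTO-overexpressing over wild-type libraries for the 81 segments tested, ordered by value, with 95% intervals from edgeR's quasi-likelihood test and a dashed line at their median of -0.49. The values run from -2.69 to 1.58.

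The ends of that range held segments with totals below and above the members' median of 816 counts, such as Ighv5-6 with 507 and Ighv9-1 with 1637. Ighv11-2, known from B-1 cell antibodies against phosphatidylcholine, stood at 0.108, 18.9 and 0.550 CPM in the wild type, against at 0.711, 0.114 and 2.12 CPM in the overexpressing group. Its log2 fold change of -2.69 ± 1.56 (SE, adjusted p 0.675 in edgeR's test) was set by wild-type replicate 2, and without that library it was 1.60. Ighv12-3, the other segment known for such antibodies, had 39 counts in all, 22 of them in FTO-overexpressing replicate 3, and was not tested. Ighv5-6 stood at 4.82, 14.7 and 1.21 CPM in the wild type, against at 2.81, 0.512 and 2.40 CPM in the overexpressing group, a log2 fold change of -1.85 ± 0.871 (adjusted p 0.587). Ighv9-1 had a value of -1.59 ± 0.825 (adjusted p 0.625), with 42.3 CPM in wild-type replicate 2 and between 2.44 and 17.1 CPM elsewhere. For each of these segments the groups overlapped.

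At the upper end, Ighv1-11 had a log2 fold change of 1.58 ± 0.878 (SE, adjusted p 0.659 in edgeR's test) but reached only 1.94 CPM in its highest library. Ighv6-6 stood at 5.91, 9.24 and 2.97 CPM in the wild type, against at 7.42, 5.74 and 33.7 CPM in the overexpressing group, a log2 fold change of 1.37 ± 0.705 (adjusted p 0.622). FTO-overexpressing replicate 3 alone was above every wild-type library for it. Ighv1-59 stood at 6.24, 8.88 and 3.47 CPM in the wild type, against at 11.8, 5.58 and 26.4 CPM in the overexpressing group, a log2 fold change of 1.24 ± 0.557 (adjusted p 0.558). Here 2 of 3 overexpressing libraries were above the wild type and the third lay within it.

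Because the total differed so much between libraries, the use of each segment was also expressed as a share of the Ighv counts of its library. Counts were not divided by length in these shares, and the annotated transcripts of the members are 294 to 461 bases long. Divided by that length, the largest segment of each library and the set of 8 leading segments below stayed as given. The 3 largest all stayed in each wild-type library, against 1, 2 and 2 of them in FTO-overexpressing replicates 1, 2 and 3. The 10 segments with the largest totals held 48.9% of all Ighv counts, 44 members had at least 1000 counts and 82 members were detected in all 6 libraries. Of the 8 segments that were among the 3 largest of at least 1 library, 7 were in the Ighv1 family.

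Ighv14-3 took 3.83%, 9.80% and 7.90% of Ighv counts in the wild type, against 7.60%, 4.41% and 8.50% in the overexpressing group. It was the largest segment in 3 libraries, wild-type replicate 2 and FTO-overexpressing replicates 1 and 3. On the CPM scale it stood at 50.01, 289 and 49.8 in the wild type, against at 86.0, 23.9 and 161 in the overexpressing group, with a log2 fold change of -0.52 ± 0.833 (SE, adjusted p 0.909 in edgeR's test). The groups overlapped on both scales.

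Ighv1-64 took 13.1%, 7.02% and 3.87% in the wild type, against 4.49%, 2.75% and 3.90% in the overexpressing group. The 13.1% of wild-type replicate 1 was the largest share of any segment in any library. Its log2 fold change was -1.53 ± 0.778 (SE, adjusted p 0.620 in edgeR's test), from 171, 207 and 24.4 CPM in the wild type to 50.8, 14.9 and 73.7 CPM in the overexpressing group. Ighv1-55 was likewise high in wild-type replicate 1, at 9.62%, and lay between 3.09% and 5.49% in the other libraries. Ighv1-19 had its largest share there too, 9.01%, and lay between 4.33% and 5.79% elsewhere. Wild-type replicate 1 thus stood apart from the other 5 libraries in 3 leading segments of 1 family.

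Ighv1-34 was largest in wild-type replicate 3, at 8.72%, beside 4.43% and 5.00% in the other wild-type libraries and 5.56%, 7.37% and 5.57% in the overexpressing group. Ighv1-72 was also highest in wild-type replicate 3, at 6.43%, and lay between 2.22% and 4.97% elsewhere. The log2 fold changes of Ighv1-34 and Ighv1-72 were -0.32 ± 0.457 (SE, adjusted p 0.895 in edgeR's test) and 0.19 ± 0.452 (adjusted p 0.948). The groups overlapped for both segments.

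Ighv1-50 took 3.89%, 2.53% and 4.97% in the wild type, against 5.94%, 5.84% and 7.39% in the overexpressing group. Ighv1-82 took 4.72%, 3.44% and 4.63% in the wild type, against 5.38%, 7.49% and 5.56% in the overexpressing group. On the share scale, and not in CPM, the groups did not overlap for these segments, nor for Ighv1-69, Ighv6-6, Ighv1-59 and Ighv1-5. These 6 of the 81 members tested were higher in the overexpressing group and 0 were lower. Over all genes 7.94% were above and 6.9% below, and the higher count is near that level. Those percentages come from the CPM scale, however, where 0 members were above and 0 below. No background was computed on the share scale. Ighv1-69, Ighv6-6, Ighv1-59 and Ighv1-5 had smaller shares, of 0.212% to 1.78%. In CPM, Ighv1-50 and Ighv1-82 had log2 fold changes of 0.61 ± 0.513 (SE, adjusted p 0.798 in edgeR's test) and 0.11 ± 0.468 (adjusted p 0.97).

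**Figure D3:**
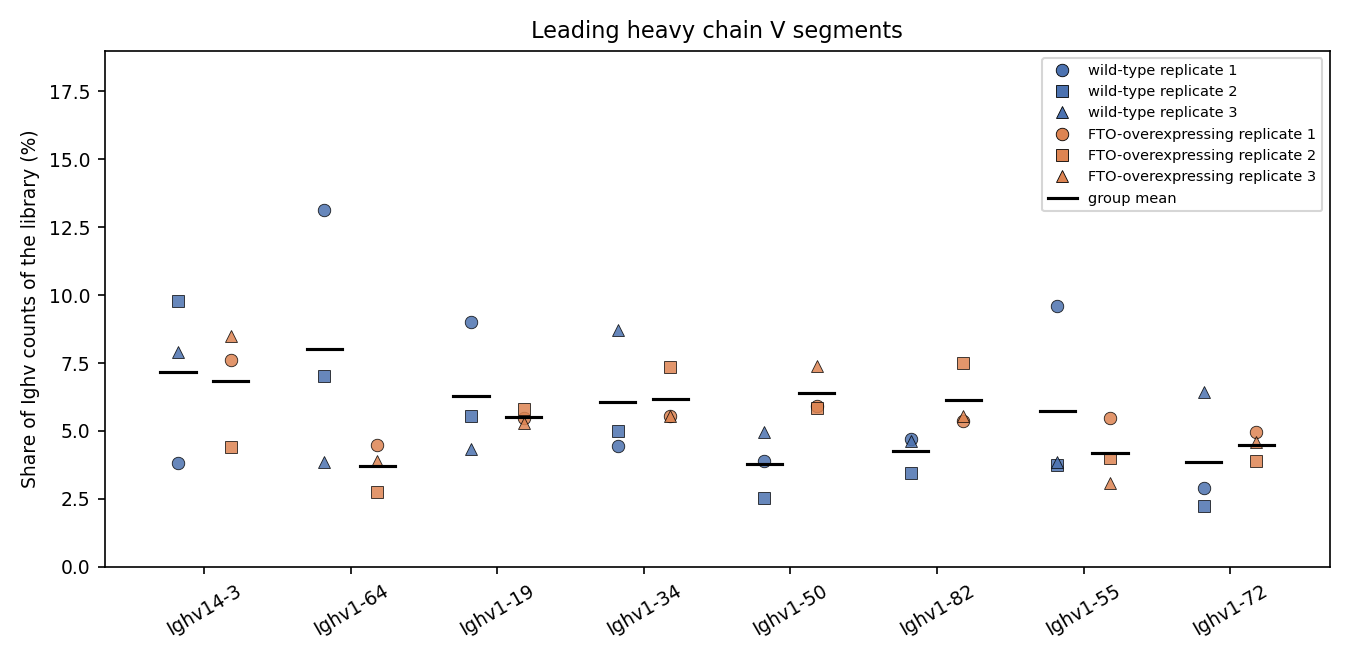
Share of a library's Ighv counts (%) taken by each of the 8 leading segments, with a point for each library and a bar at each group mean. Wild-type replicate 1 is highest for Ighv1-64 (13.1%), Ighv1-55 (9.62%) and Ighv1-19 (9.01%), and the groups do not overlap for Ighv1-50 and Ighv1-82.

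Among the leading segments the widest 95% Wilson interval was that of Ighv1-82 in FTO-overexpressing replicate 2, where 715 of 9544 Ighv counts gave 7.49% (6.98% to 8.04%). Of the 48 segments that reached 1% in some library, the median segment had a highest share 3.23 times its lowest, and the steadiest had 1.53 times. Even so, 7 segments were among the 10 largest in all 6 libraries and 16 were among them in any.

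A few segments stood out in 1 library, and they were singled out after their values were seen, as those with at least 0.5% in 1 library and at least 3 times the next. Ighv1-31 held 160 of its 179 counts in FTO-overexpressing replicate 2, 1.68% of that library's Ighv counts, and at most 0.0232% in the others. Ighv1-74 held 2.90% in wild-type replicate 3 and at most 0.814% in the others. Ighv11-2 held 0.642% in wild-type replicate 2 and at most 0.112% in the others. Each of the 3 peaks lies in a different library, and 1 of them is in the overexpressing group.

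Diversity was summarised by the effective number of segments, the exponential of the Shannon entropy, which is the number of equally used segments that would give the same evenness. It was 35.8, 44.8 and 40.0 in the wild type, against 41.7, 44.2 and 43.7 in the overexpressing group. The groups overlapped, with the highest and the 2 lowest libraries all wild type. The means were 40.2 ± 4.51 (SD, n = 3) and 43.2 ± 1.29 (SD, n = 3), a difference of 2.99 segments that is smaller than the wild-type SD. Without wild-type replicate 1 the difference was 0.779, and without wild-type replicate 2 it was 5.29. The inverse Simpson index, which weighs the large segments more, was 20.5, 29.5 and 27.5 in the wild type, against 28.8, 30.6 and 29.2 in the overexpressing group. Wild-type replicate 1, where Ighv1-64 led, was lowest on both indices.

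The 5 largest segments of a library held 40.9%, 31.4% and 32.6% of Ighv counts in the wild type, against 30.1%, 30.9% and 32.3% in the overexpressing group. Segments detected numbered 92, 96 and 88 in the wild type, against 92, 93 and 97 in the overexpressing group, with Ighv totals that differed between libraries. Rarefied to the 9544 Ighv counts of the smallest library, the expected number was 88.4, 91.6 and 87.2 in the wild type, against 86.9, 93.0 and 90.8 in the overexpressing group. The groups overlapped on the rarefied number. Without division by length, they did not overlap in the share of the single largest segment. It was 13.1%, 9.80% and 8.72% in the wild type, against 7.60%, 7.49% and 8.50% in the overexpressing group. The nearest values were 8.72% and 8.50%, and their Wilson intervals, 8.23% to 9.26% and 8.24% to 8.78%, overlapped. Divided by length, the largest share was 11.9%, 8.96% and 8.19% in the wild type, against 6.95%, 9.14% and 7.71%. There the groups overlapped. Ighv14-3, the member with the largest total, was also left out of the undivided shares. The largest share was then 13.7%, 7.78% and 9.47% in the wild type, against 6.43%, 7.84% and 8.08%, and the groups overlapped. For the kappa light chain, 89 Igkv segments passed the same minimum, and their effective number was 38.4, 43.1 and 38.8 in the wild type, against 41.4, 40.8 and 38.7 in the overexpressing group. There the means differed by 0.226 segments, less than either SD (2.62 and 1.38). The inverse Simpson index of Igkv averaged 26.7 ± 1.83 (SD, n = 3) in the wild type, against 29.0 ± 1.39 (SD, n = 3). The largest Igkv segment took 11.5%, 10.4% and 8.44% in the wild type, against 7.44%, 8.31% and 8.11% in the overexpressing group. These did not overlap, but the nearest values were 8.44% and 8.31%, without division by length. The 5 largest Igkv segments held 34.6%, 32.2% and 35.4% in the wild type, against 29.1%, 30.4% and 32.9%, and there the groups overlapped. No test was made of these indices.

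Usage overlap, the sum over segments of the smaller of a pair of libraries' shares, was 67.6% to 75.1% within the wild type and 74.7% to 80.7% within the overexpressing group. Between the groups it was 67.3% to 80.3% over the 9 pairs, which spans nearly the same range as the pairs within the groups. Igkv usage overlapped by 72.6% to 78.6% within the wild type, 71.5% to 76.1% within the overexpressing group and 71.7% to 78.3% between them.

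Members came from 15 of the 16 Ighv families, and Ighv16 alone had none. The Ighv1 family, with 49 members, took 70.9%, 57.1% and 63.4% of Ighv counts in the wild type, against 65.3%, 65.3% and 61.9% in the overexpressing group. Its means were 63.8% ± 6.88 (SD, n = 3) and 64.2% ± 1.98 (SD, n = 3), a difference well within the spread. The Ighv14 family, led by Ighv14-3, took 5.31%, 13.1% and 10.6% in the wild type, against 10.1%, 6.49% and 12.5% in the overexpressing group. The Ighv7 family, which holds the Ighv7-1 segment of antibodies against phosphorylcholine, ran from 0.523% in wild-type replicate 1 to 4.49% in FTO-overexpressing replicate 2. Ighv7-1 itself had 47 counts, and Ighv7-4 was the family's largest member, at up to 3.24% in a library.

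**Figure D4:**
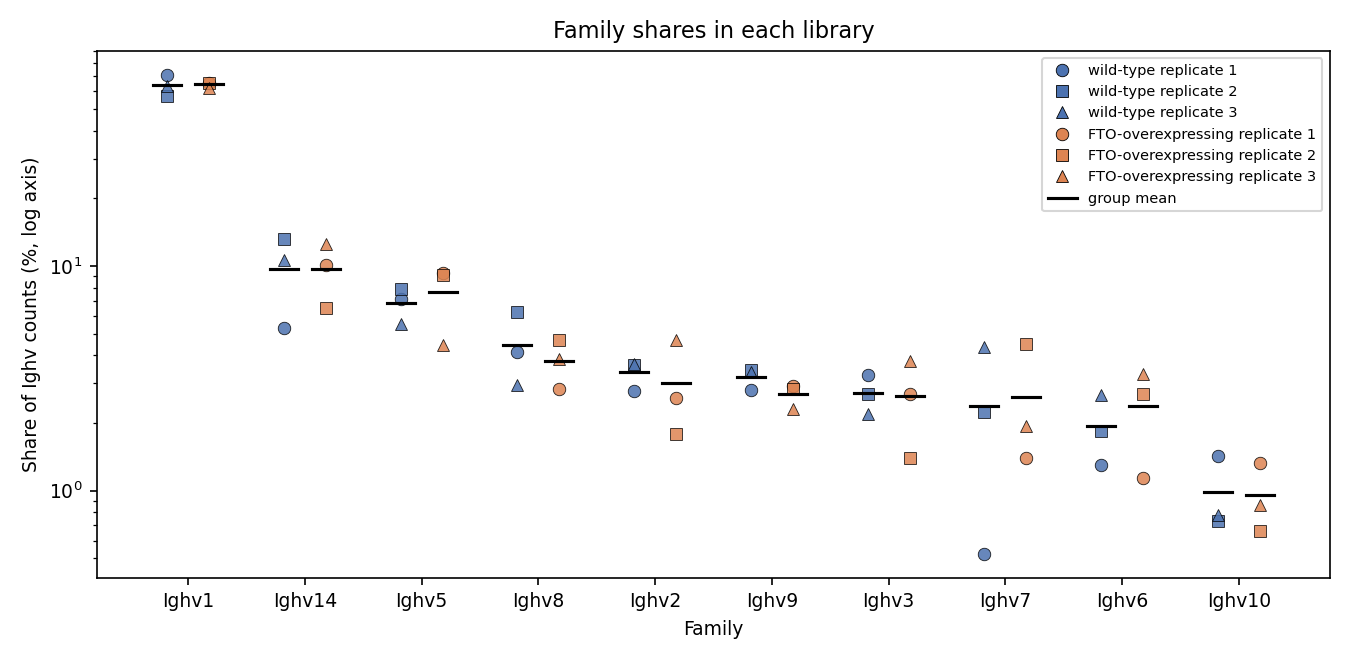
Share of a library's Ighv counts (%, log axis) taken by the 10 largest families, with a point for each library and a bar at each group mean. Ighv1 takes 57.1% to 70.9% in all 6 libraries, and Ighv7 ranges from 0.523% to 4.49%.

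Within a family the members' sequences had a median identity of 85.7%, against 58.7% between families. The Ighv5 family took 7.11%, 7.93% and 5.51% in the wild type, against 9.26%, 9.14% and 4.46% in the overexpressing group. Ighv8 took 2.95% to 6.24% in the wild type and 2.83% to 4.66% in the overexpressing group. The groups also overlapped for Ighv9, where the shares were 2.80%, 3.43% and 3.39% against 2.91%, 2.83% and 2.30%.

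Ordered from the end of the locus next to the D segments and cut into 3 parts of 61 rows, the proximal, middle and distal parts held 36, 27 and 35 members. The distal part, with Ighv1 and Ighv8 only, took 55.2%, 42.9% and 44.7% of Ighv counts in the wild type, against 47.3%, 44.1% and 42.1% in the overexpressing group. The proximal part took 21.2%, 33.7% and 29.9% in the wild type, against 29.1%, 26.1% and 29.3% in the overexpressing group. Segments from both ends of the locus were thus in use in every library, and the group values overlapped in the distal and the proximal part. In the middle part the shares were 23.5%, 23.4% and 25.4% in the wild type, against 23.5%, 29.9% and 28.6% in the overexpressing group. The groups overlapped there too, with FTO-overexpressing replicate 1 below wild-type replicate 3.

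**Figure D5:**
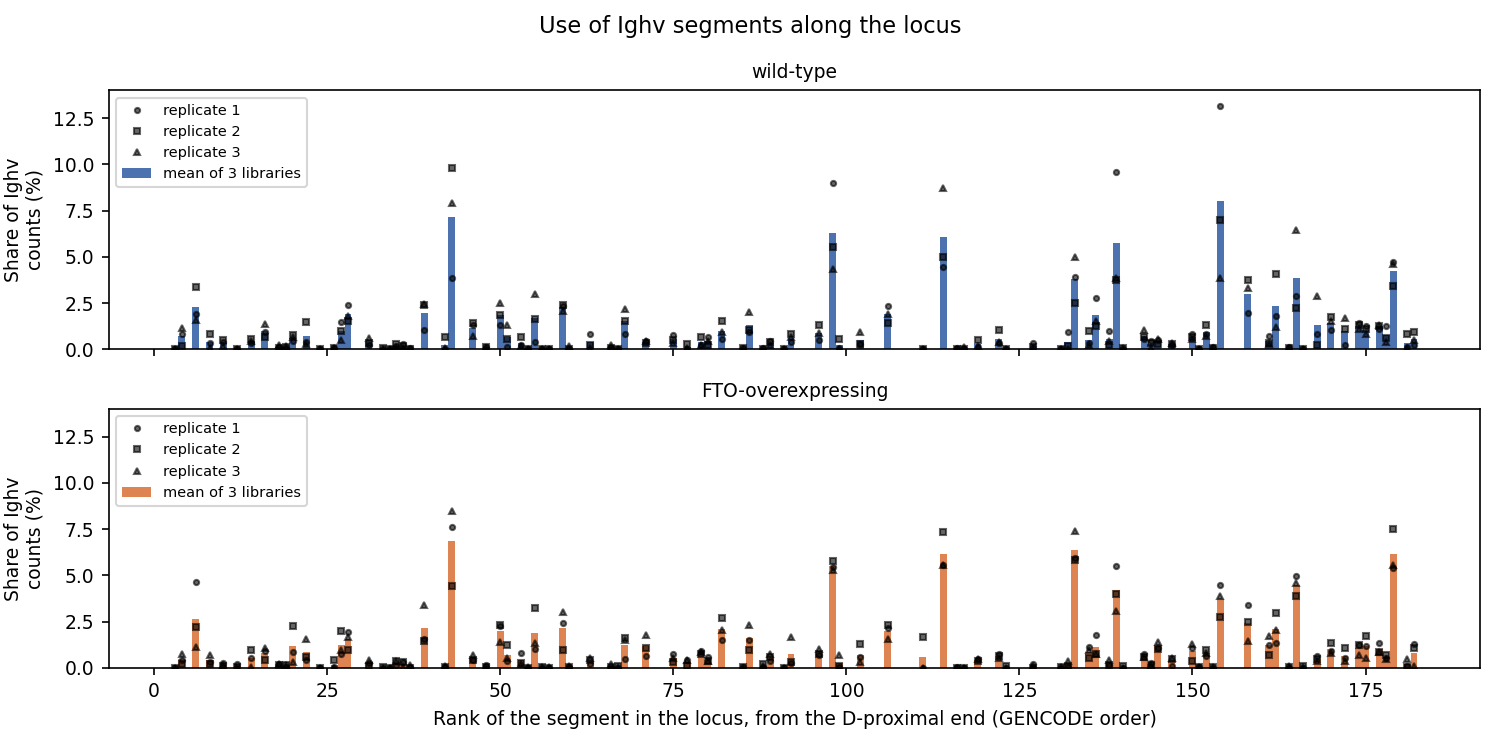
Share of Ighv counts (%) of each member by its rank along the locus from the D-proximal end, in the wild type above and the FTO-overexpressing group below, with bars for group means and points for libraries. Tall bars recur at the same ranks in both groups, and the highest point is the 13.1% of Ighv1-64 in wild-type replicate 1.

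The other lists were measured beside the segments. The light chain V list had 82 of 163 genes tested and none called, with 59 log2 fold changes below 0 and a median of -0.47. None of the 10 transcription factors of the heavy chain locus, such as Pax5 and Pou2af1, passed the test, nor did any of 9 genes of antibody transport and Fc receptors, among them Pigr, which carries IgA across epithelium. None of the tested genes for the germinal centre (5 of 7), the follicle and lymphoid stroma (4 of 6), recombination and mutation (2 of 6), lung (7 of 7) and red cells (5 of 5) passed. The summed recombination and mutation genes did not overlap, with 14.6 to 16.4 CPM in the wild type, against 19.3 to 20.8 CPM in the overexpressing group. Most of that sum was Polh, a DNA polymerase that copies past damage and is not limited to B cells, whose log2 fold change was 0.37 ± 0.103 (SE, adjusted p 0.259 in edgeR's test). Haemoglobin took 0.368% to 3.27% of a library's counts, in another order of the libraries than Ighv. In the T cell list 7 of 7 markers were higher in every overexpressing library than in any wild-type library, as were 7.94% of all genes, and 2 of 7, Cd8a and Lck, passed the test, beside 0.0765% of all genes called higher, with summed levels of 60.0 to 84.7 CPM in the wild type and 205 to 414 CPM in the overexpressing group. Its part in the Ighv values was not tested.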

How the data were processed

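Lung RNA was sequenced in 3 wild-type and 3 FTO-overexpressing samples with a stranded poly(A) kit, per the labels' protocols. The submitters' processing notes name fastp, HISAT2 and StringTie without versions. The sources used here do not give the build, the annotation, the counting program or whether counting used the strand. The authors deposited 1 table of expected counts (9.66% to 10.3% of rows not whole), which were rounded for the count tests. Rows without a symbol (525) took 0.119% to 0.143% of counts.

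In R 4.3.3, edgeR 4.0.16 (filterByExpr, TMM, quasi-likelihood F-test, group as the only term) was fitted to all genes with Benjamini-Hochberg adjustment. The threshold was an adjusted p of 0.05. DESeq2 1.42.0, limma 3.58.1 (voom), other scalings and filters, and leaving out each library were alternatives. The edgeR script was tested on simulated data. Shares and diversity used the values as deposited. No p is given for sums or indices over the members.

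Segments were named if among the 3 largest shares of a library, among the 3 highest or lowest log2 fold changes, or next to the count threshold; exceptions are stated. The members and lists were chosen with earlier results of these data known. Depth is the range of library totals, and intervals cover counting error only.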

Additional observations from a re-analysis of the deposited data

How the results depend on the processing

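No Ighv member was called under any of the 14 alternatives to the test, with a lowest adjusted p of 0.161 over them, although the number of genes called over the whole table moved from 16 to 424 with DESeq2, 287 without the filter, 5 with limma-voom and between 1 and 49 with a library left out. Without the filter 19 of 98 members had an unadjusted p under 0.05 in edgeR's test. The share of all 29537 genes at that threshold was not computed for this fit, so the count has no background beside it. With the replicate block there were 0 members called and 2 genes in all. Same-numbered libraries did not deviate together as a set (r of 0.130, -0.334 and -0.353), and not every library correlated best with its own number. These values gave no sign of pairing by number. They cannot exclude it, because the deviations were taken from the means of only 3 libraries a group. The ratio of Ighv shares was 0.705 to 0.748 in CPM, per B cell marker count, without haemoglobin and mitochondrial genes, and with other members. Per count of other antibody transcripts it was 0.967 (heavy chain constant), 0.926 (light chain V) and 1.02 (Jchain). It ran from 0.521 to 1.25 with a library left out, crossing 1 without wild-type replicate 2. The difference in effective number ran from 0.779 to 5.29 with a library left out. Leaving out 1 library turned the sign of 6 named segments and of the median. Of these, the check on the median was chosen after seeing the data. The ranges of the log2 fold changes were -0.75 to 0.30 for Ighv1-34, -0.079 to 0.99 for Ighv1-50, -0.31 to 0.58 for Ighv1-72, -0.33 to 0.61 for Ighv1-82, -3.93 to 1.60 for Ighv11-2, -1.24 to 0.86 for Ighv14-3 and -1.03 to 0.41 for the median. The cause was not tested. Near-identical segments, the unstated handling of shared reads and 3 libraries a group limit what single segments can show.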
